A study of Mus musculus with 6 samples.

Results

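The genes described here are 10 members of the semaphorin, plexin and neuropilin family in mouse CD8+ T cells treated with an LSD1 inhibitor. They are the semaphorins Sema4a, Sema4b, Sema4c, Sema4d and Sema7a, the plexins Plxna1, Plxnb2, Plxnc1 and Plxnd1, and the neuropilin Nrp1. They were matched by symbol to 10 of the 16281 genes in the table of counts. The list was chosen from the family by name with the measured GSK and Veh values in view, and it holds 10 of the 30 family genes in the table. The differences between GSK and Veh in these 10 genes are therefore given as a description, without p-values, and nothing is read from how many of them changed. RNA was sequenced from 3 cultures treated with GSK2879552 (GSK) at 0.5 μM and 3 treated with vehicle (Veh). GSK irreversibly blocks LSD1, a histone demethylase encoded by Kdm1a. In both groups the cells came from the spleen of OT1 mice on the C57BL/6 strain, which carry the T-cell receptor transgene Tg(TcraTcrb)1100Mjb against an ovalbumin peptide. They were stimulated through CD3 and CD28, with each antibody at 2 μg/ml and IL-2 at 20 ng/mL, for 48 h and then grown in IL-2 for 3 days, with GSK or vehicle present throughout. All cultures thus held activated cells from mice with the same T-cell receptor transgene, outside the body and without tumor or infection. LSD1 was inhibited and not deleted.

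Semaphorins are secreted or membrane-bound proteins that were first known for steering growing axons. They are read by plexins, receptors whose inner part switches off small GTPases of the Ras and Rap type and so loosens cell adhesion and reshapes the cytoskeleton. Neuropilins are co-receptors without a signalling domain of their own, which bind secreted semaphorins and also VEGF. In the immune system, class 4 semaphorins and Sema7a sit on the surface of lymphocytes, where they act on neighbouring cells, while plexins guide the movement of T cells and dendritic cells. Nrp1 is best known in T cells as a marker of thymus-derived regulatory T cells, and it is also found on plasmacytoid dendritic cells and on T cells that meet their antigen repeatedly.

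The counts summed to between 18288447 and 18918811 in Veh and between 19149909 and 19846720 in GSK. Levels are given as CPM, the counts of a gene scaled to a common library size with TMM factors. Sums over marker lists were instead scaled to the total counts of each sample, without TMM factors. Kdm1a, the gene of the drug's target, ranged from 89.1 to 99.1 CPM in Veh against 84.0 to 90.9 CPM in GSK, which says nothing about the activity of the protein. All 8 CD8 T-cell markers were tested and 0 were called by edgeR's quasi-likelihood test, and DESeq2 also called 0. In edgeR, 7 had an unadjusted p under 0.05, most of them lower in GSK. An adjusted p under 0.05 was reached by 6, which were not called because their fold change stayed under 1.5. The 8 markers summed to 2670 to 2810 CPM in Veh against 2380 to 2600 CPM in GSK. Siglech and Xcr1, which define plasmacytoid and cross-presenting dendritic cells, had no row in the table. Ms4a1, Pax5, Csf1r, Adgre1, Cd14, Ncr1, Cdh5, Hbb-bs and Pf4 had fewer than 10 counts in each of the 6 samples. Other markers of these lists were counted, such as Cd79b (89 to 139 reads a sample), Cd68 (141 to 207), Klre1 (142 to 252) and Pecam1 (1088 to 1452). Of the marker lists not read beside a member, B cells summed to 6.34 to 8.31 CPM in Veh and 8.05 to 9.72 in GSK with Cd22 called higher, endothelial and stromal cells to 74.9 to 83.7 and 59.2 to 74.2 CPM, and red cells and platelets to 1.7 to 2.54 and 0.783 to 1.45 CPM with Itga2b called lower. In bulk RNA, fewer cells that express a gene and less RNA per cell cannot be told apart.

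Of the 10 members, 3 were called higher in GSK (Sema7a, Plxna1 and Sema4b), 1 was called lower (Nrp1) and 6 were not called. To be called, a gene had to change by more than 1.5-fold and to have an adjusted p (Benjamini-Hochberg) under 0.05 in the quasi-likelihood test of edgeR. Among all 11698 genes tested, 6.32% were called, 2.22% upward and 4.09% downward. At the adjusted p alone, 6 members passed, against 32.1% of all genes. In 7 members the 3 GSK samples lay on one side of the 3 Veh samples, as they did in 46.7% of all genes. For Sema4d, which is among them, this depends on the TMM factors. All 10 members passed the filter on low counts.

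**Figure D1:**
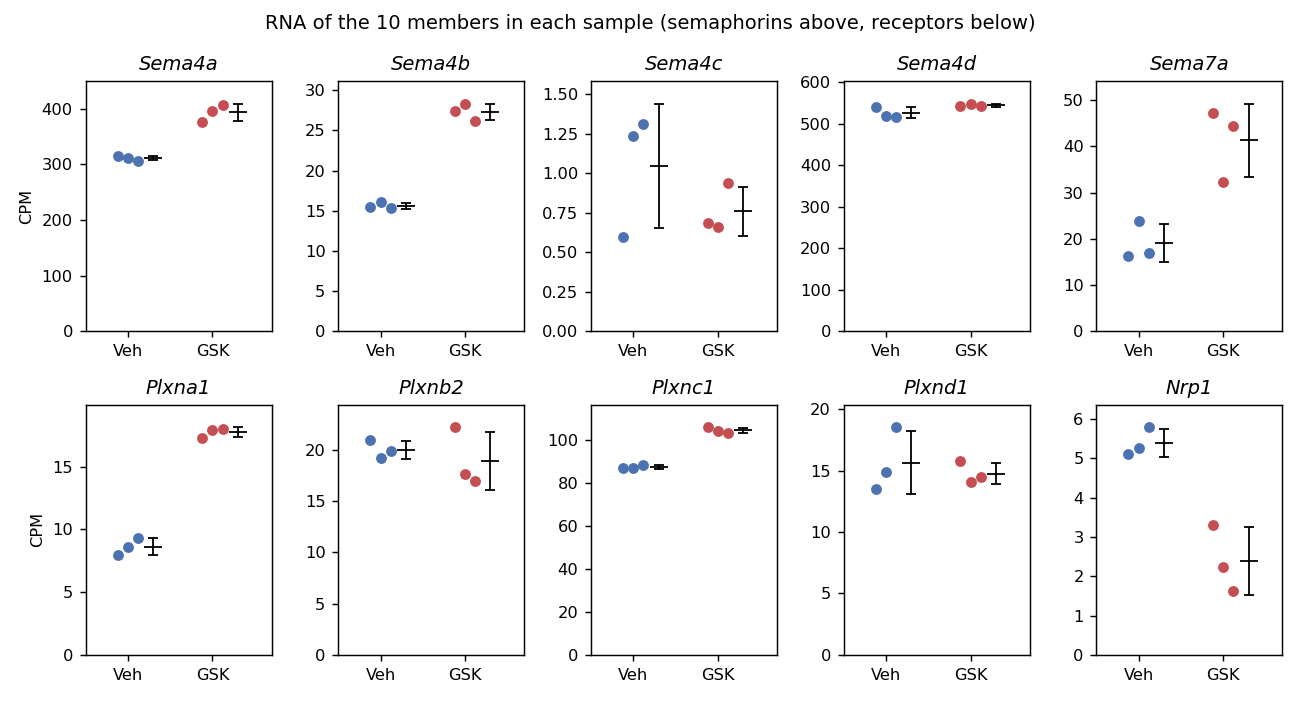
Level of each member in CPM in the 3 Veh samples (blue) and the 3 GSK samples (red), with the mean and the SD of each group in black at their right. The groups are far apart for Sema4b and Plxna1, which had 15.6 and 8.63 CPM on average in Veh and 27.3 and 17.7 CPM in GSK, and they overlap for Sema4c, Plxnb2 and Plxnd1.

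Promoter sequences were compared for what the members share beyond the counts. RefSeq gives 17 windows of 300 bases, from 250 before to 50 after a start site, for 9 of the members, and Plxna1 has no entry. The windows of Sema7a and Nrp1 are shown because these genes had the largest difference in each direction. Both lie inside the gene spans given below, so their start sites are downstream of the first base of the span. Each is written 5′ to 3′ on the plus strand of GRCm38.p6, with the matches to the motifs searched in capitals.

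Sema7a, chr9:57939862-57940161, plus strand: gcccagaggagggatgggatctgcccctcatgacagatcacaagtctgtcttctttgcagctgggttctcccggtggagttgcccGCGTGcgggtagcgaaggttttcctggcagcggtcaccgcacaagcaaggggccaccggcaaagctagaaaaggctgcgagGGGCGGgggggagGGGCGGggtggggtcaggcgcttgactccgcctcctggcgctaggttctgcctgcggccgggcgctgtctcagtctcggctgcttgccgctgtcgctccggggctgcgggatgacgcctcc

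Nrp1, chr8:128358823-128359122, plus strand: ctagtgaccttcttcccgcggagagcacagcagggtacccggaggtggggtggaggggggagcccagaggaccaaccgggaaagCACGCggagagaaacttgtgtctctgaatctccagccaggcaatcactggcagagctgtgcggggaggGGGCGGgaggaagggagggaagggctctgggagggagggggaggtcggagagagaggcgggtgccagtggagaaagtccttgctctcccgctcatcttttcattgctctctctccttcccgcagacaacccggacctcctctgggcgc

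The motifs searched on both strands were the TATA box TATAAA, the GC box GGGCGG, the AP-1 site TGANTCA, the hypoxia response cores ACGTG and GCGTG, which differ in their first letter, the AAATC core read by Gfi1, and the Runx site TGTGGT. In the Sema7a window GGGCGG starts at bases 167 and 180 and GCGTG at base 86, counted from the 5′ end. In the Nrp1 window GGGCGG starts at base 153 and GCGTG, read from the other strand, at base 85. The gene that rose and the gene that fell thus hold the same 2 of these motifs. Of all 17 windows, 14 held GGGCGG (35.7% of all promoter windows do), 5 GCGTG (32.4%), 3 ACGTG (19.6%), 2 AAATC (35.9%), 2 TGANTCA (7.81%), 1 TGTGGT (16.8%) and 0 TATAAA (13.6%). The windows had a median GC content of 64.0% and 15 CpG, against 52.7% and 7 over all windows. The 3 windows of Sema4d had at most 3 CpG each, and 3 of the 4 windows of Sema4a had 7, 5 and 4. A match to such short motifs describes the sequence and shows no binding.

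Of the semaphorins, Sema7a differed the most. Sema7a is anchored to the membrane by a lipid, and it acts on integrin β1 and on plexin C1. In GRCm38 the gene spans 57939596 to 57962865 of chromosome 9. The Veh samples measured 16.4, 23.8 and 16.9 CPM, and the GSK samples 47.1, 32.3 and 44.5 CPM. Every GSK sample was above every Veh sample, and replicate 2 was the highest of Veh and the lowest of GSK. Its log2 fold change came to 1.12 with a standard error of 0.205, a 2.17-fold higher level. It lay between 1.01 and 1.31 under all alternatives of the fit, including each sample left out.

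Sema4b, a transmembrane semaphorin less studied in T cells than Sema4a and Sema4d, lies on chromosome 7 from 80186870 to 80226646. The Veh cultures had 15.4, 16.0 and 15.4 CPM, those with GSK 27.4, 28.2 and 26.2 CPM. The samples within each group stayed close together, with a coefficient of variation of 2.40% in Veh and 3.81% in GSK. Its log2 fold change came to 0.80 (standard error 0.0762), or 1.75-fold, and between 0.78 and 0.83 under the alternatives. The difference was thus smaller than that of Sema7a and far more even between samples.

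Sema4a and Sema4d were the abundant members, at the 95.0 and 97.8 percentile of mean CPM in Veh among all genes tested. Sema4a supports T-cell priming and helper T-cell differentiation, and lies on chromosome 3 from 88435959 to 88461182. Its level was 314, 312 and 307 CPM in Veh against 377, 396 and 407 CPM with GSK. The groups did not overlap, yet the ratio was 1.26-fold (log2 fold change 0.34, standard error 0.0407), below the fold change that a call asks for. Sema4d, also known as CD100, is a semaphorin of resting and activated T cells that acts on B cells through CD72. Its gene lies on chromosome 13 from 51685529 to 51793678. Sema4d stood at 542, 520 and 517 CPM in Veh against 543, 548 and 542 CPM in GSK. All 3 GSK samples were above the Veh samples, the nearest by a very small margin (541.5 CPM in Veh replicate 1, 542.0 in GSK replicate 3). This order depends on the TMM factors and is not kept without them. The log2 fold change was 0.05 (standard error 0.0353).

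Sema4c, a ligand of plexin B2, was near the limit of what these libraries can measure. It had 11, 23 and 25 reads in the Veh samples and 13, 13 and 18 in the GSK samples. The groups overlapped, with 0.598, 1.23 and 1.31 CPM in Veh against 0.683, 0.658 and 0.939 CPM in GSK. The log2 fold change of -0.47 had a standard error of 0.384, nearly as large as the difference itself. Exons of Sema4c share 334 bases with D430040D24Rik on the other strand, so reads there are uncertain.

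Among the receptors, Plxna1 differed the most upward. Plexin A1 pairs with neuropilins to read class 3 semaphorins, and in dendritic cells with the Trem2 and Tyrobp complex. The gene lies on chromosome 6 from 89316313 to 89362613. The Veh samples were at 8.0, 8.58 and 9.30 CPM and the GSK samples at 17.3, 17.9 and 17.99 CPM. The lowest GSK sample was well above the highest Veh sample. Its log2 fold change came to 1.04 with a standard error of 0.0996, or 2.05-fold, and ran from 0.99 to 1.1 under the alternatives. Exons of Plxna1 share 970 bases with the antisense gene Gm26811, which has no row of its own in the table, so reads there are uncertain as well.

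Nrp1 was the member with the largest difference of either sign. It lies on chromosome 8 from 128358591 to 128505476. The Veh samples had 94, 98 and 110 reads and the GSK samples 63, 44 and 31, which gives 5.11, 5.26 and 5.78 CPM against 3.31, 2.23 and 1.62 CPM. Every GSK sample was below every Veh sample. The GSK samples differed more among themselves than the Veh samples, with coefficients of variation of 35.9% and 6.53%. Its log2 fold change came to -1.17 (standard error 0.233), or 0.443-fold. It ran from -1.48 to -0.96 under the alternatives. Exons of Nrp1 share 80 bases with the microRNA gene Mir1903 on the same strand.

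Genes that mark the other cells known for Nrp1 were read beside it. Foxp3, which defines regulatory T cells, was at 3.26 ± 1.38 CPM (SD, n = 3) in Veh, and 3.54 ± 1.25 CPM in GSK, and Cd4 had 9 to 34 reads a sample, against 9427 to 10964 for Cd8a. Ikzf2 (Helios), which regulatory T cells share with other activated T cells, fell from 27.0 ± 2.21 to 16.6 ± 2.35 CPM (log2 fold change -0.70, adjusted p = 3.7e-04 by edgeR's quasi-likelihood test), while Ccr4 and Il2ra of the same list rose (log2 fold changes 0.64 and 0.59). The 5 markers of CD4 and regulatory T cells together had 892 to 951 CPM in Veh and 1300 to 1410 in GSK, nearly all from Il2ra, which activated CD8 T cells also express. Of the 8 markers of dendritic cells, 3 were tested, and 1 of them, Itgax (CD11c), was lower (log2 fold change -1.37, adjusted p = 0.0023). This list summed to 72.6 to 99.9 CPM in Veh and 91.2 to 113 in GSK, mostly from Bst2. The part of these cells in the Nrp1 difference was not tested.

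Plexin C1, a receptor of Sema7a, was the most abundant receptor among the members. Plxnc1 lies on chromosome 10 from 94790866 to 94945015 and measured 86.9, 86.9 and 88.6 CPM in Veh against 106, 104 and 104 CPM in GSK. The groups did not overlap and the spread within each was about 1% of its mean, with coefficients of variation of 1.12% and 1.14%. Its log2 fold change came to 0.26 (standard error 0.0443), or 1.20-fold, below the fold change of a call.

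Plexin B2 reads class 4 semaphorins, among them Sema4c and Sema4d. Plxnb2 (chromosome 15, 89155546 to 89182018) was at 20.9, 19.2 and 19.9 CPM in Veh against 22.1, 17.7 and 16.9 CPM in GSK, with a log2 fold change of -0.08 (standard error 0.103). GSK replicate 1 was the highest of the 6 samples and the other GSK samples the lowest. Plexin D1 guides thymocytes and blood vessels and binds Sema4a and Sema3e. Plxnd1 (chromosome 6, 115954811 to 115995339) was at 13.5, 14.9 and 18.5 CPM in Veh against 15.7, 14.1 and 14.4 CPM in GSK, with a log2 fold change of -0.08 (standard error 0.117). Its GSK samples lay within the range of the Veh samples, and the sign of its small difference turned to 0.05 without Veh replicate 3.

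The levels of the members were compared with each other per kilobase of annotated exon, since longer genes collect more reads. In Veh, Sema4d led with 68.5 ± 1.75 CPM per kb (SD, n = 3), followed by Sema4a with 57.5 ± 0.722 and, well below, by Plxnc1 with 10.5 ± 0.117 CPM per kb. Sema7a had 5.77 ± 1.25, Sema4b 2.77 ± 0.0664, Plxnb2 2.59 ± 0.114 and Plxnd1 2.14 ± 0.353 CPM per kb. Plxna1 (0.953 ± 0.0722), Nrp1 (0.550 ± 0.0359) and Sema4c (0.228 ± 0.0854 CPM per kb) were the lowest. Among neighbours in this order, the sample ranges overlapped only between Plxnb2 and Plxnd1. With the longest transcript in place of all exons, Nrp1 and Plxna1 changed places, the other 8 kept their rank, and Plxnb2 and Plxnd1 no longer overlapped.

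In GSK the first places of the order were shared. Sema4a had 72.7 ± 2.88 CPM per kb and Sema4d 70.9 ± 0.413, with overlapping samples. The ratio of Sema4a to Sema4d per length was 0.824, 0.853 and 0.842 in the Veh samples and 0.984, 1.03 and 1.07 in the GSK samples, so it was higher in every GSK sample. This ratio is taken within a library and does not depend on the scaling between libraries, although its size depends on the exon lengths used. Sema7a reached 12.5 ± 2.40 CPM per kb and so overlapped Plxnc1, at 12.5 ± 0.143, which had been above it in Veh. Plxna1 came to 1.96 ± 0.0435 and overlapped Plxnd1 at 2.02 ± 0.121. Nrp1 came down to 0.244 ± 0.0875 CPM per kb, where its samples overlapped those of Sema4c (0.165 ± 0.0338). These last places depend on the length used. Per kilobase of the longest transcript, Nrp1 had 0.443 to 0.907 CPM per kb in GSK, above the 0.169 to 0.241 of Sema4c. Plxnd1 and Plxna1 did not overlap on that scale either, while the overlaps of Sema4a with Sema4d and of Plxnc1 with Sema7a remained.

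**Figure D2:**
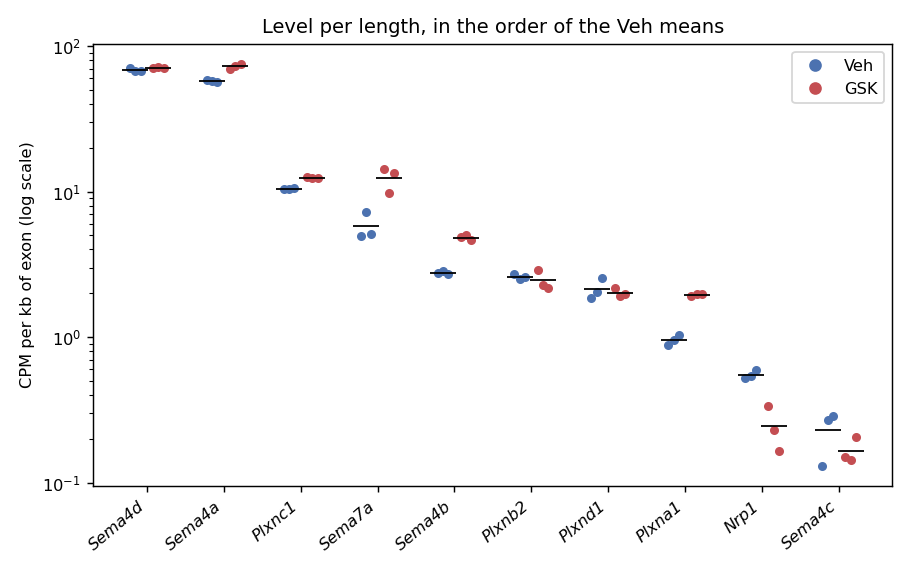
Level of each member per kilobase of annotated exon in CPM per kb, on a log axis, in the order of the Veh means, with 3 Veh samples in blue, 3 GSK samples in red and group means as black lines. Sema4d and Sema4a stand above 50 CPM per kb in both groups, and Nrp1 and Sema4c are the lowest.

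Summed per length, the 5 semaphorins had 135 ± 2.30 CPM per kb in Veh and 161 ± 2.65 in GSK, and the 4 plexins 16.2 ± 0.506 and 19.0 ± 0.578. The cells thus held far more RNA for these ligands than for these receptors in both groups. Sema4d made up 50.8 ± 0.91% of the semaphorin sum in Veh and 44.0 ± 0.91% in GSK, while the share of Plxnc1 in the plexin sum was 64.9 ± 1.3% and 66.1 ± 1.3%.

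The rest of the family shows what the list leaves out. Of the 31 genes of the family, 30 have a row and 19 were tested, of which 3 were called higher and 3 lower, against 2.22% and 4.09% of all genes tested. The upward calls are all among the 10 members, which were chosen with these values in view, so nothing is read from these counts. The 9 tested genes outside the list all had a lower mean in GSK, as did 50.6% of all genes, and 2 of them were called lower, Sema6c and Sema6b. Sema6c had 35, 18 and 29 reads in the Veh samples and 12, 9 and 8 with GSK, and its log2 fold change was -1.54, with a standard error of 0.381. Sema6b went from 4.89 ± 0.704 to 3.21 ± 0.164 CPM (SD, n = 3; log2 fold change -0.61, standard error 0.183). Both belong to the transmembrane class 6, known for reading and being read by class A plexins.

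Sema4f, a relative of the class 4 members, came close to the fold change of a call, at 29.2 ± 2.22 CPM in Veh against 19.7 ± 2.49 CPM in GSK (log2 fold change -0.57, standard error 0.0967), and its groups did not overlap. Sema4g had log2 fold change -0.60 (standard error 0.258) at 24 to 38 reads, and Sema6d -0.53 (standard error 0.158) with overlapping groups. The remaining tested genes, Sema3f, Plxna3, Plxnb1 and Nrp2, had under 2 CPM on average in each group, with log2 fold changes from -0.40 for Nrp2 to -0.07 for Plxnb1 and overlapping groups. Of the 7 class 3 semaphorins, the secreted ligands that Plxna1 and Nrp1 read, 1 passed the filter, and the 11 family genes that did not pass it had at most 14 reads in any sample. Among these are Plxna2 and Plxna4, the other class A plexins besides Plxna3. Sema5b has no row.

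**Figure D3:**
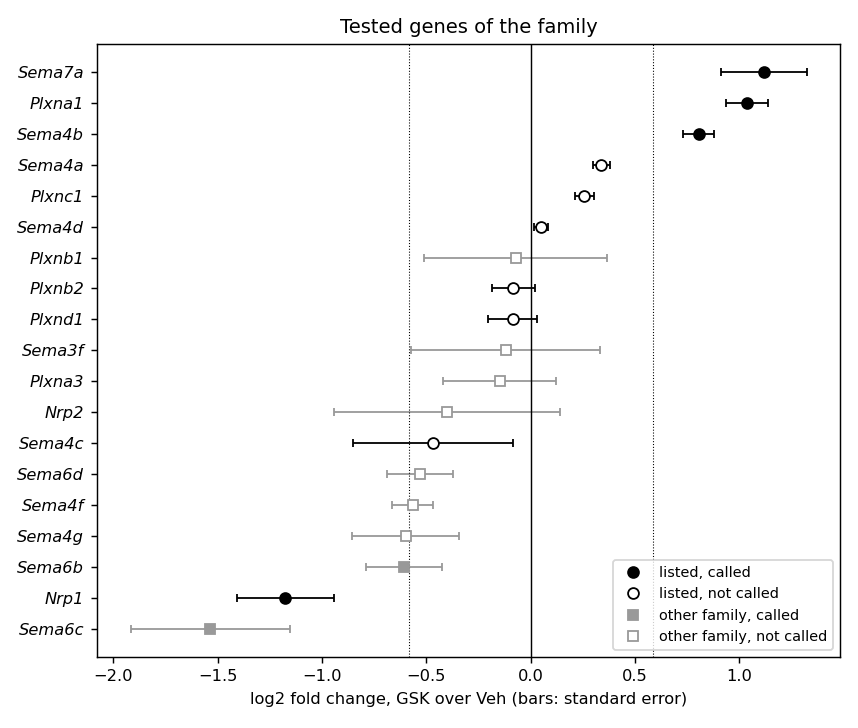
Log2 fold change of GSK over Veh with its standard error for the 19 tested genes of the family, with listed members as black circles, other family genes as grey squares, filled symbols for called genes and dotted lines at a fold change of 1.5. Sema7a, Plxna1 and Sema4b stand on the right, and Nrp1 and Sema6c lie farthest to the left.

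The other genes of semaphorin signalling were read in lists of 57 partners from what is known of the pathway. The lists were drawn up with earlier results of these data known, and 43 of the genes were tested. At the calling thresholds 2 were higher and 2 lower, which is 9.3% of them against 6.32% of all genes. At the adjusted p alone 8 were higher and 7 lower, or 34.9% against 32.1% of all genes. The median log2 fold change of the 43 was -0.01, and -0.004 over all genes tested. Both shares were near those of all genes, so the counts are no result about the partners.

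Among other receptors and co-receptors, 6 of 11 genes were tested. Tyrobp, the adaptor that works with plexin A1 in dendritic cells, was called higher at very low counts, with 5, 11 and 2 reads in Veh and 17, 21 and 13 in GSK (log2 fold change 1.43, adjusted p = 0.047 by edgeR's quasi-likelihood test). This call was lost in 7 of 10 alternatives, over which the adjusted p ran from 0.018 to 0.16. The samples that it rests on are Veh replicates 1 (adjusted p = 0.13 without it) and 3 (0.16) and GSK replicates 1 (0.12), 2 (0.11) and 3 (0.051). Trem2, the receptor that Tyrobp serves there, was not tested. Tyrobp is also an adaptor of NK and myeloid cells. The 4 NK-cell markers summed to 205 to 225 CPM in Veh against 430 to 462 CPM in GSK, nearly all from Eomes, which activated CD8 T cells also express. Klre1 rose from 8.04 to 11.4 CPM on average, without overlap (log2 fold change 0.50, adjusted p = 0.00926 in the edgeR fit), and was not called. Klrb1c went from 2.07 to 3.03 CPM with overlapping groups. The 8 myeloid markers summed to 12.6 to 18.7 CPM in Veh against 12.2 to 16.1 CPM in GSK, and Fcgr3 was called lower. Of the other tested myeloid markers, Lyz2 and Itgam had lower means in GSK, and Mpeg1 and Cd68 higher means, without a call. The part of these cells in the Tyrobp value was not tested. Itgb1, the integrin β1 that Sema7a binds, was not called, at 348 ± 23.6 CPM in Veh against 269 ± 13.7 CPM in GSK (log2 fold change -0.37, adjusted p = 3.5e-04). L1cam had 20.3 ± 1.22 and 22.0 ± 2.52 CPM.

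Of the 6 other ligands of Nrp1, 3 were tested. Vegfa, a growth factor of blood vessels that binds neuropilins, fell from 45.9 ± 1.1 to 19.4 ± 1.80 CPM (SD, n = 3; log2 fold change -1.24, adjusted p = 4.1e-07). Tgfb1, a suppressive cytokine that Nrp1 can also bind, rose from 226 ± 2.91 to 253 ± 3.23 CPM, with no overlap between the groups. Its log2 fold change of 0.16 (adjusted p = 0.0068 in the edgeR fit) was too small for a call. Vegfb, at 18.1 ± 1.30 and 16.8 ± 2.03 CPM, was not called and its groups overlapped. Vegfa thus had less RNA in GSK, as Nrp1 did, while Tgfb1 had more.

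Of the 8 tested small GTPases, 0 were called by edgeR or DESeq2, while 3 had an unadjusted p under 0.05 in edgeR and 2 passed the adjusted p alone, Rras2 upward and Rras downward. Rap1b, a Rap protein that plexins switch off, was at 457 ± 2.92 CPM in Veh against 459 ± 3.63 CPM in GSK, and Rhoa at 444 ± 8.88 and 425 ± 6.70 CPM. Of the 22 tested effectors, Arhgef11 was called higher and Mical2 lower. Arhgef11 encodes a guanine nucleotide exchange factor that binds the tail of B-class plexins. It rose from 15.7 ± 2.22 to 28.8 ± 3.42 CPM (log2 fold change 0.88, adjusted p = 2.0e-04). Mical2, an actin oxidase of the family that acts under class A plexins, fell from 5.39 ± 1.23 to 3.47 ± 0.719 CPM (log2 fold change -0.63, adjusted p = 0.037). It was not called without Veh replicate 2 (adjusted p = 0.18), GSK replicate 2 (0.057) or GSK replicate 3 (0.12), nor with DESeq2 (0.051), within a range of 0.019 to 0.18 over 11 alternatives.

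Cfl1, the actin-severing protein cofilin, and the kinase Fyn were the most abundant effectors that were not called, with log2 fold changes of 0.15 and 0.33. Their groups did not overlap, and both passed the adjusted p alone (0.0041 and 7.5e-04 in the edgeR fit). At the adjusted p alone 9 of the 22 tested effectors passed, 5 higher and 4 lower. All 4 listed proteases that cut semaphorins were tested, Mmp14 at only 8 to 14 reads a sample. Of the 4, 0 were called by edgeR or DESeq2 or had an unadjusted p under 0.05 in edgeR. Among them Adam10 was at 190 ± 3.54 CPM in Veh against 196 ± 4.45 CPM in GSK, and Adam17, which can cut Sema4d, had 96.0 ± 2.73 and 97.1 ± 2.69 CPM.

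**Figure D4:**
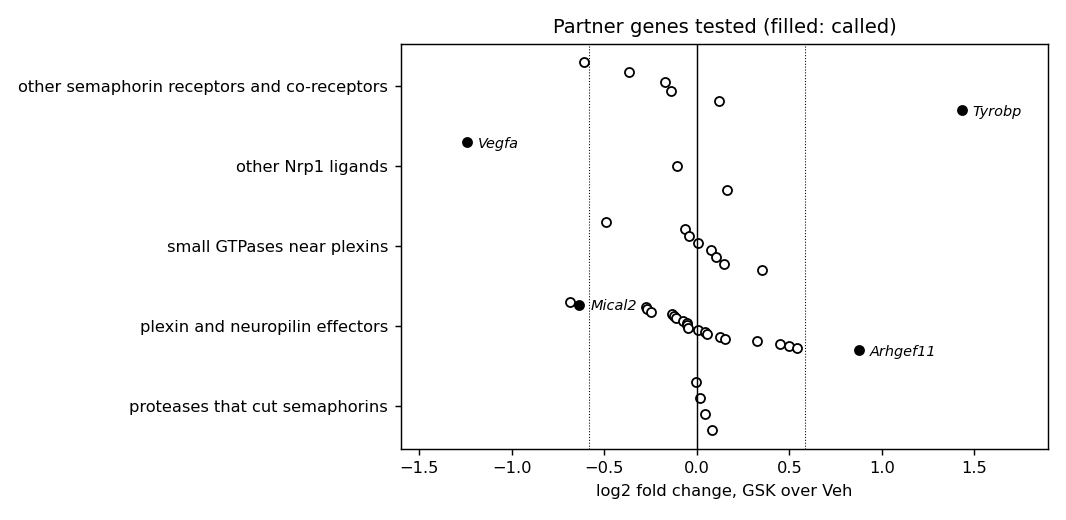
Log2 fold change of GSK over Veh for the 43 tested partner genes in 5 lists, 1 point per gene, filled where called, with dotted lines at a fold change of 1.5. The called genes are Tyrobp and Arhgef11 on the right and Vegfa and Mical2 on the left, and the proteases all lie close to 0.

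The pattern of Nrp1 over the 6 samples, as the largest difference among the members, was set beside that of all tested genes. The 5 genes most like it by Pearson's r of log2 CPM were Prickle4 (r = 0.997), Tnfsf13b (0.996), C2cd5 (0.996), Cep170 (0.996) and Zfp459 (0.993). Their log2 fold changes ran from -1.38 for Prickle4 to -0.30 for C2cd5, so the likeness is one of shape and not of size. Prickle4 and Tnfsf13b were near the limit of measurement, at 1.18 and 1.75 CPM on average in Veh and 0.449 and 0.812 in GSK. Zfp459 was also low (3.67 and 2.9 CPM), while C2cd5 and Cep170 had 95.3 and 75.4 CPM in Veh. These values are a description, since the 6 points hold 2 treatment groups and the 5 genes are the highest of 11698.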

How the data were processed

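The authors trimmed the reads with Trimmomatic, mapped them to mouse GRCm38 with HISAT2 (version 2.1.0) and counted them per gene with HTSeq (version 0.11.2), and the deposited values are these raw counts. The library kit was stranded, but the annotation and strand setting of the counting are not given in the sources used here, so counts where genes overlap are uncertain. GSK and Veh (n = 3 each, labelled in the sources as 3 mice per group) were fitted with the quasi-likelihood method of edgeR (version 4.0.16, R version 4.3.3, robust, TMM factors, filterByExpr), and p-values were adjusted by Benjamini-Hochberg across the 11698 genes that passed the filter. A standard error is the log2 fold change divided by the square root of F. Log2 CPM, used only for likeness between genes, had a prior count of 2. Exon lengths and overlaps came from GENCODE M21 on GRCm38, and coordinates and promoters from RefSeq on GRCm38.p6. The edgeR fit was also run on counts simulated from the gene means and spreads of these data.

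Depth was 18288447 to 19846720 counts per sample, and genes under about 10 reads in most samples did not pass the filter. The members, the partner and marker lists and the motifs were chosen with earlier results of these data known. Partner genes named are those called and the 2 most abundant not called of each list, and Trem2, Rras, Rras2, Fes and Mical3 were named after their values were seen. Chi-square per degree of freedom between replicates ran from 4.08 to 9.42, so all libraries differed beyond sampling noise. With 3 against 3 samples an exact permutation test cannot give a p under 0.1, so genes were tested only in the fit across all genes. Alternatives were DESeq2 (version 1.42.0), RLE scaling, no filter, a minimum of 1 CPM in 3 samples, the replicate block, the adjusted p without a fold change and each sample left out in turn.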

Additional observations from a re-analysis of the deposited data

How the results depend on the processing

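No member gained or lost its call under DESeq2, RLE size factors, the other filters, the replicate block or with a sample left out, except that Sema4c was not tested with a minimum of 1 CPM in 3 samples. Of 109 log2 fold changes of members under these alternatives, all 109 moved by less than 1 SD between replicates, and 1, that of Plxnd1 without Veh replicate 3, changed sign. With the adjusted p alone, 5 members were higher in place of 3, as were 1941 of all genes in place of 260, and 1819 were lower in place of 479, which follows from dropping the fold change. With the replicate block, 253 genes were called higher and 447 lower. Same-numbered samples had deviations that correlated at -0.052, -0.081 and 0.16 across genes, so the numbers were not taken to pair the samples. These values concern the numbering only and cannot show whether the 2 groups shared mice. The sources name 3 separate OT1 mice and do not say whether each gave both cultures.

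Partner genes called higher were 2, and 1 with DESeq2, with no filter on low counts and with the minimum of 1 CPM, the latter because Tyrobp was not tested there. With the adjusted p alone they were 8. Partner genes called lower were 2, 1 with DESeq2 and 7 with the adjusted p alone. With each sample left out, the higher ones were 1 to 3 and the lower ones 1 to 2. At the calling thresholds, the counts moved through Tyrobp and Mical2, which lost their calls, and through Rras, Fes and Mical3, which gained one. Why these calls changed was not tested. Rras (log2 fold change -0.59) and Fes (0.82) were called only without Veh replicate 2, and Mical3 (0.59) only without GSK replicate 3. Depth limits Sema4c, Nrp1, Sema6c and Tyrobp, which have 2 to 110 reads a sample.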
